A study of Arabidopsis thaliana with 12 samples.

Results

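The response described here is the difference in gene expression between 7-day Arabidopsis thaliana hypocotyls, the seedling stems, with and without 1 day of auxin. It was read from 3 arrays of treated seedlings and 3 arrays of untreated ones, out of 12 arrays in the series, by comparing all 22746 probe sets that are not controls. The treated group was ecotype Col-0, 7 days old, and had received auxin for 1 day; the untreated group was ecotype Col-0, 7 days old, with no auxin. The other 6 arrays hold 35-day Col-0 hypocotyls with and without auxin, 3 arrays each, and are used where the responses at the 2 ages are set side by side and to estimate the spread. All plants grew on full-strength MS medium, a mineral salt medium. The labels give no mutation or transgene, and they name neither the auxin nor its dose. Whether untreated seedlings were kept for the same day is likewise not stated. The arrays are described as biological replicates, each from an unstated number of seedlings, and the series concerns how the capacity for callus formation changes with age.

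Auxin acts by bringing its receptors together with AUX/IAA repressors, which are then degraded and release the ARF transcription factors they hold. Among the direct targets of these factors are the AUX/IAA genes themselves, GH3 genes whose enzymes attach auxin to amino acids, and LBD genes of the LOB domain family. In roots and hypocotyls LBD factors switch pericycle cells, which line the vascular cylinder, into the divisions that start a lateral root. Callus on auxin-rich medium begins through the same divisions. Each hypocotyl also holds green cortical and epidermal cells, whose chloroplasts carry out photosynthesis.

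Values are log2 expression, each relative to the median of its own probe set over the 12 arrays, so that a difference of 1 is a 2-fold change and levels of different genes cannot be compared. An error after ± is the standard error (SE) of the difference with n = 3 arrays a group, and p-values come from limma with Benjamini-Hochberg adjustment over the 22746 probe sets. Differences with an adjusted p under 0.05 are those counted as called. Each gene given with its values was called unless stated, and its 3 auxin arrays then lay on one side of its 3 untreated arrays. The genes named are mainly the largest changes of the response and of each gene group, and for these both properties were asked for. Further members of the groups were chosen after their values were seen. Of the 22746 probe sets, 13513 have exactly 1 gene in the annotation and only those are named, 8730 have none and 503 have several. Called probe sets made up 54.6% of those with 1 gene and 66.1% of those with none.

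Control probe sets differed between the groups, and the spike-in bioC also between arrays of the untreated group. It is a bacterial transcript added to check hybridisation, and averaged 0.18, −0.20 and 0.20 on the auxin arrays, against −1.43, −1.53 and 0.70 on untreated arrays 1, 2 and 3. Another spike-in, cre, was lower on every auxin array, at −0.52, −0.44 and −0.11, against 0.15, 0.08 and 0.23 on the untreated arrays. A 25S ribosomal RNA control read 1.77, 2.49 and 2.50 on the auxin arrays and −2.19, −2.56 and −1.06 on the untreated arrays. The 3′ minus 5′ signal of GAPDH, which can report RNA integrity, was −0.13, −0.18 and 0.03 with auxin, against 0.51, 0.33 and 0.36 without. The mean of all GAPDH control probe sets was 0.07, 0.14 and 0.28 with auxin and −0.75, −0.57 and −0.62 without, and that of Actin was 0.13, 0.05 and 0.07 with auxin and −0.17, −0.22 and −0.30 without. The part of these differences in the results was not tested. Arrays 1 and 2 of the 35-day untreated group were low in bioC as well. Without these 4 low-bioC arrays 11428 probe sets passed, against 13440 with all arrays. Each untreated group then holds 1 array, which is assumed to vary like the others. Of the genes named by rule, APS3, SIM, cox2, PRXR1, BZIP60, GH3.9, YUC4, RECQ4B, PUB24 and CCOAMT were no longer called without the 4 low-bioC arrays.

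Expression of most of the measured transcripts differed after 1 day of auxin. The fit called 13440 of 22746 probe sets (59.1%), 7441 higher (32.7%) and 5999 lower (26.4%), and the median called rise was 0.82 and the median called fall −0.90. A fold of at least 2 was reached by 5663 probe sets (24.9%), and 7777 called ones stayed under it. In 14661 probe sets (64.5%) the 2 groups of 3 arrays did not overlap, 8089 of them higher and 6572 lower with auxin. The median SD within a group was 0.10 on the auxin arrays and 0.12 on the untreated arrays, against a median SE of the difference of 0.10. Over all probe sets the median difference was 0.02.

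**Figure D1:**
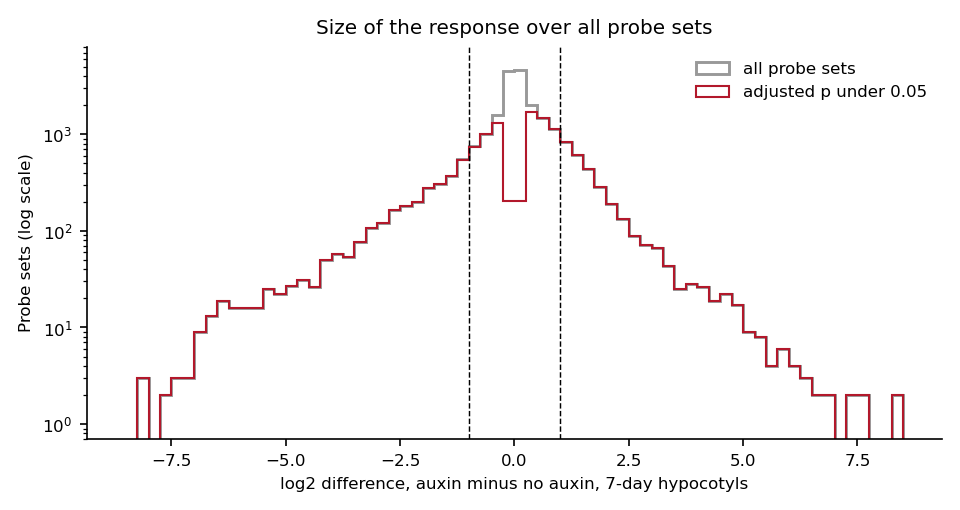
Distribution of the log2 difference (auxin minus no auxin) over the 22746 probe sets, in steps on a log count axis, with the called probe sets drawn as a separate line and dashed lines at a 2-fold change. Rises of at least 2-fold number 2927 and falls 2736, and the tail of falls is the longer one, with 147 probe sets lower at least 32-fold and 44 higher.

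Small rises outnumbered small falls, and large falls outnumbered large rises. At a fold of at least 4, 772 probe sets were higher and 1242 lower with auxin, at 8-fold 291 and 575, and at 16-fold 128 and 281. Of the 85 that changed at least 64-fold, 17 were higher and 68 lower, and of the 7 that changed at least 200-fold, 3 were higher and 4 lower. The longer tail of falls is visible in the distribution of differences over all probe sets.

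**Figure D2:**
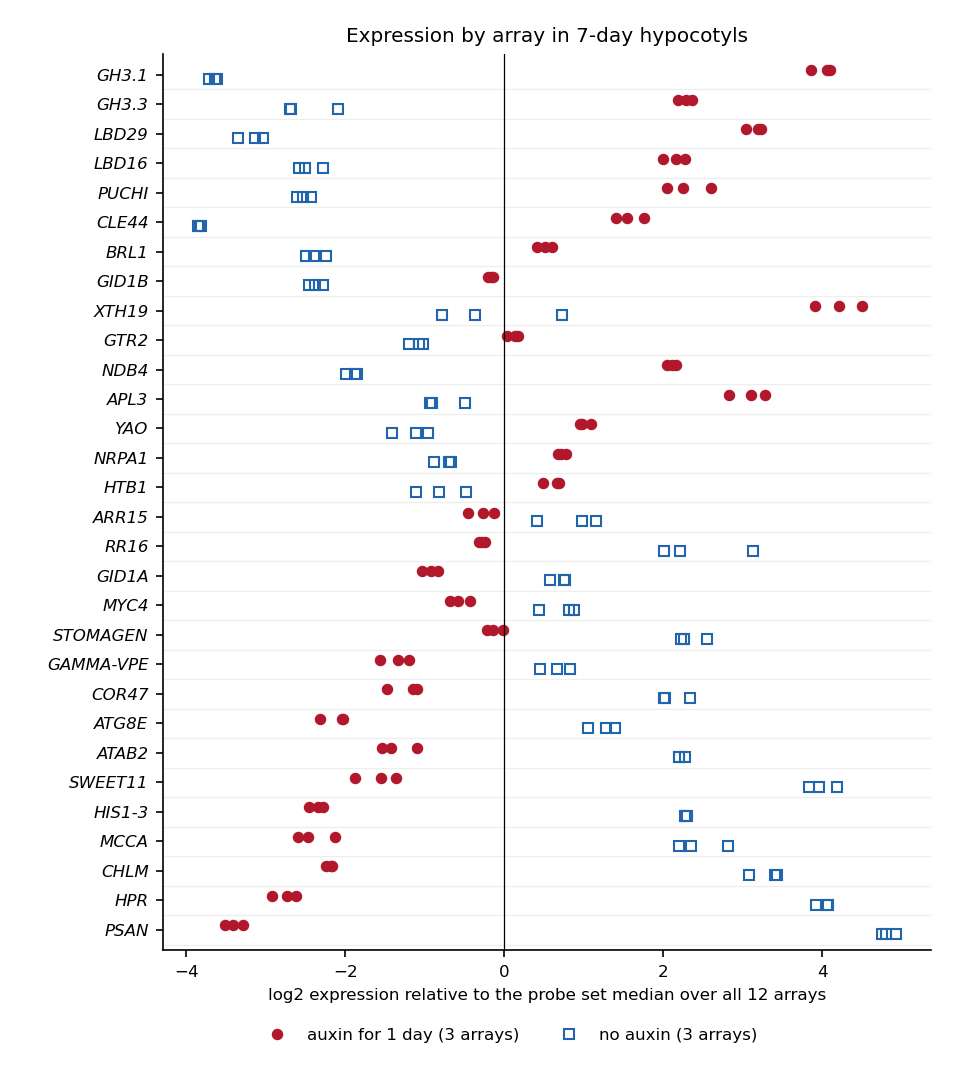
Expression of 30 named genes on each of the 6 arrays of 7-day hypocotyls (log2, relative to the probe set median over all 12 arrays); filled circles are the 3 auxin arrays and open squares the 3 untreated arrays. The 2 groups of points are apart in each of these genes, with GH3.1 between 3.86 and 4.09 on auxin arrays and between −3.72 and −3.62 on untreated arrays.

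Enzymes that inactivate auxin moved in both directions, with the rises the larger. GH3.1 (AT2G14960), whose enzyme conjugates auxin to amino acids, read 3.86, 4.06 and 4.09 on the auxin arrays, against −3.62, −3.72 and −3.63 on the untreated arrays. All 3 auxin arrays were far above all 3 untreated ones, and the difference of 7.66 ± 0.10 (202-fold, adjusted p = 3.3e-14) was the third largest rise of all probe sets. GH3.3 (AT2G23170) read 2.18, 2.36 and 2.28 with auxin and −2.68, −2.70 and −2.09 without, a difference of 4.76 ± 0.25 (27.2-fold, adjusted p = 1.1e-09). The GH3 genes WES1 (3.16 ± 0.16) and GH3.17 (1.03 ± 0.09) were called higher as well. UGT74D1 (AT2G31750), whose enzyme attaches glucose to auxin, went the other way: it read −0.16, −0.11 and −0.32 on the auxin arrays and 1.70, 2.05 and 1.70 on the untreated arrays (−2.01 ± 0.13, adjusted p = 8.8e-09). GH3.9 was lower by a small amount (−0.24 ± 0.08, adjusted p = 0.016) and was not called without auxin array 3 or untreated array 2, while the glucosyltransferase gene UGT84B1 differed by 0.00 ± 0.10 and was not called (adjusted p = 1). Of the 7 measured genes of auxin inactivation, 4 were thus called higher and 2 lower (1 without the 4 low-bioC arrays), with a median difference of 1.03. Over all 13356 genes, each given 1 value, 30.5% were called higher and 23.8% lower, with a median of 0.025. These figures are the background to every group count below, and no group was tested as a set. Groups were made by matching gene symbols, and 11809 of the 13356 genes are listed under a locus only. Many members of a family can therefore be missing from its count, and "measured" means measured under a matching symbol.

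AUX/IAA genes encode repressors of the auxin response, and 4 of the 7 measured were called higher and 0 lower (median 1.33). IAA30 (AT3G62100) read 1.38, 1.44 and 1.59 on the auxin arrays, against −1.36, −1.43 and −1.68 on the untreated arrays (2.96 ± 0.12, 7.77-fold, adjusted p = 4.9e-11). IAA29 (AT4G32280) read 2.06, 1.99 and 2.09 with auxin and −0.50, −0.50 and −0.96 without (2.70 ± 0.13, 6.48-fold). In both genes the auxin arrays lay within 0.30 of each other and above every untreated array. IAA20 (1.5 ± 0.10) and IAA18 (1.33 ± 0.14) were also called higher, whereas IAA31, IAA33 and IAA34 differed by −0.09, −0.17 and 0.05 and were not called.

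Genes of auxin synthesis and of the kinases that steer its transport changed less. YUC6 (AT5G25620), a flavin monooxygenase of auxin synthesis, read −0.54, −0.92 and −0.89 with auxin and 0.63, 0.33 and 0.59 without (−1.30 ± 0.15, adjusted p = 4.4e-06). YUC4 was barely lower (−0.24 ± 0.09, adjusted p = 0.038) and was not called without auxin array 2 or 3 or without untreated array 1 or 2, and YUC2 (−0.15 ± 0.14) and YUC11 (0.12 ± 0.10) were not called. WAG2 (AT3G14370), a kinase that acts on PIN auxin carriers, read 1.94, 2.04 and 1.60 on the auxin arrays, against 1.07, 1.08 and 0.95 on the untreated arrays, and its rise was 0.83 ± 0.19 (adjusted p = 0.0019). The related PID2 (AT2G26700) fell, with −1.26, −0.87 and −0.54 on the auxin arrays and 0.08, 0.34 and 0.59 on the untreated arrays (−1.22 ± 0.21). HAT2, a homeodomain-leucine zipper factor known as an early auxin-induced gene, was higher (1.28 ± 0.12, 2.42-fold, adjusted p = 3.6e-07).

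Of 4 measured transcription factors that act in lateral root initiation or callus, 3 rose and BBM did not. LBD29 (AT3G58190) read 3.23, 3.04 and 3.20 on the auxin arrays and −3.04, −3.14 and −3.34 on the untreated arrays (6.33 ± 0.12, 80.3-fold, adjusted p = 9.4e-14). LBD16 (AT2G42430), which acts beside it in the first pericycle divisions, read 1.99, 2.16 and 2.28 with auxin, against −2.27, −2.50 and −2.58 without (4.59 ± 0.11, 24.2-fold). PUCHI (AT5G18560), an AP2/ERF factor of the early lateral root primordium, read 2.25, 2.05 and 2.60 on the auxin arrays and −2.53, −2.43 and −2.61 on the untreated arrays (4.82 ± 0.27, 28.3-fold, adjusted p = 1.8e-09). In each of the 3 genes the lowest auxin array stood more than 4 above the highest untreated array. BBM, an AP2 factor of embryos and root meristems, differed by 0.12 ± 0.11 and was not called (adjusted p = 0.37).

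Response genes of other hormones moved in different directions. RR16 (AT2G40670), a type-A response regulator that cytokinin induces and that dampens cytokinin signalling, read −0.24, −0.28 and −0.32 on the auxin arrays and 2.21, 3.13 and 2.01 on the untreated arrays (−2.73 ± 0.22, 6.64-fold lower, adjusted p = 7e-08). ARR15 (AT1G74890), of the same type, read −0.13, −0.45 and −0.26 with auxin and 0.41, 1.15 and 0.98 without (−1.13 ± 0.17). The 4 other measured response regulators ranged from −0.25 for RR18, which was called lower, to 0.05 for RR22. Of the 3 gibberellin receptor genes GID1B (AT3G63010) rose and the other two fell. GID1B read −0.17, −0.15 and −0.21 on the auxin arrays, against −2.45, −2.39 and −2.28 on the untreated arrays (2.20 ± 0.10, adjusted p = 1.6e-10). GID1A (AT3G05120) read −0.84, −0.92 and −1.03 with auxin and 0.76, 0.57 and 0.75 without (−1.62 ± 0.09), and GID1C differed by −1.09 ± 0.10. BRL1 (AT1G55610), a brassinosteroid receptor kinase of vascular cells, read 0.42, 0.51 and 0.61 on the auxin arrays and −2.50, −2.39 and −2.24 on the untreated arrays (2.89 ± 0.12, 7.40-fold, adjusted p = 1.1e-10).

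Among jasmonate genes the synthesis enzyme and the transcription factors went opposite ways. OPCL1 (AT1G20510), a CoA ligase of jasmonate synthesis in peroxisomes, read 0.08, 0.05 and 0.27 with auxin, against −1.88, −1.96 and −1.96 without (2.07 ± 0.11). MYC4 (−1.27 ± 0.13) and MYC3 (−1.11 ± 0.12), factors of the jasmonate response, were lower, and the jasmonate methyltransferase gene JMT was not called (0.14 ± 0.10). EIN3, the central factor of the ethylene response, was lower (−0.92 ± 0.09, adjusted p = 4.9e-07). Of 8 genes grouped under abscisic acid and cold, 5 were called lower and 1 higher (median −0.55). COR47 (AT1G20440), a dehydrin, read −1.1, −1.15 and −1.48 on the auxin arrays and 2.34, 2.03 and 2.01 on the untreated arrays (−3.37 ± 0.13, 10.3-fold lower). COR27, a gene of cold and clock responses, was lower (−2.20 ± 0.17), and LEA4-5, another protein of dry tissue, was the one called higher (0.60 ± 0.10). The light-signalling genes HYH (AT3G17609), which encodes a relative of the factor HY5, and FHL, a carrier of phytochrome into the nucleus, were lower (−1.97 ± 0.30 and −1.16 ± 0.17). HYH spread widely without auxin, at 0.59, 2.34 and 1.23, against −0.62, −0.46 and −0.66 with auxin. The clock gene GI was lower (−0.67 ± 0.12).

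Nuclear genes of photosynthesis gave 7 of the 15 largest falls among probe sets with 1 gene, PSAN (AT5G64040) and LHCB4.2 leading. PSAN, a subunit of photosystem I, read −3.42, −3.29 and −3.51 on the auxin arrays and 4.80, 4.93 and 4.75 on the untreated arrays (−8.24 ± 0.23, 302-fold lower, adjusted p = 1.8e-12). HPR (AT1G68010), a reductase of photorespiration in peroxisomes, read −2.92, −2.73 and −2.62 with auxin, against 4.06, 4.07 and 3.92 without (−6.78 ± 0.10, 109.6-fold lower). RCA (AT2G39730), which activates the carbon-fixing enzyme Rubisco, read −2.51, −2.75 and −2.83 on the auxin arrays and 4.11, 4.12 and 4.0 on the untreated arrays (−6.77 ± 0.14, 109-fold lower). Every one of these untreated arrays stood at 3.92 or above and every auxin array at −2.51 or below. PSB27, a photosystem II assembly protein, was lower (−6.62 ± 0.11), and so was PSAE-1, of photosystem I (−6.40 ± 0.16). The antenna gene LHCB4.2 (−7.71 ± 0.20) and the Calvin cycle kinase gene PRK (−6.97 ± 0.16) were lower by similar amounts, and LHCB4.3, another gene of that antenna family, by less (−1.81 ± 0.12). In a group of 23 genes of electron transport, carbon fixation and photorespiration, assembled after the values had been seen, 23 were called lower and 0 higher, with a median of −5.70. Its per-array medians were −2.38, −2.54 and −2.62 on the auxin arrays, against 3.19, 3.48 and 3.42 on the untreated arrays. The smallest fall in it was that of ATPC2, the minor gene for the gamma subunit of the chloroplast ATP synthase (−0.41 ± 0.10), while the major gene ATPC1 was lower (−6.02 ± 0.14).

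Pigment synthesis and chloroplast maintenance fell as well, by less. CHLM (AT4G25080), a methyltransferase of chlorophyll synthesis, read −2.17, −2.17 and −2.24 on the auxin arrays and 3.41, 3.44 and 3.08 on the untreated arrays (−5.50 ± 0.13, 45.3-fold lower). PORB (AT4G27440), which makes chlorophyllide in light, read −1.85, −2.33 and −2.58 with auxin, against 2.79, 2.96 and 2.98 without (−5.17 ± 0.17). Of 10 measured genes of chlorophyll and carotenoid synthesis, 9 were called lower and 0 higher (median −1.63), and the exception was HEMA3 (0.06 ± 0.12). The size of the fall differed between genes, and CHLM and PORB were named as the largest falls of this group. The early genes HEMB1, HEME1 and HEME2, shared with haem synthesis, were lower (−1.25 ± 0.08, −1.70 ± 0.09 and −2.55 ± 0.11). Whether the fall depends on the position in the pathway was not tested. ATAB2 (AT3G08010), an activator of the translation of photosystem proteins, read −1.09, −1.43 and −1.54 on the auxin arrays and 2.20, 2.27 and 2.20 on the untreated arrays (−3.58 ± 0.14). FUG1 (AT1G17220), a translation initiation factor of plastids, was lower (−3.14 ± 0.12), with auxin arrays within 0.10 of each other at −1.03, −1.09 and −1.09. Of 26 such chloroplast factors, a group made after the values had been seen, 20 were called lower and 3 higher (median −1.21). The higher ones were SECA2 (0.66 ± 0.14), a translocase component, and the RNA editing factors OTP81 (0.55 ± 0.09) and OTP87 (0.28 ± 0.11), of which OTP87 acts in mitochondria. TAPX, the ascorbate peroxidase of thylakoids, was 14.5-fold lower (−3.86 ± 0.14), while SAPX, which goes to the stroma and to mitochondria, was 3.3-fold higher (1.72 ± 0.09).

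Genes encoded in the plastid itself were mostly lower. Of 69 measured, 62 were called lower and 0 higher (median −1.23), and none had a difference above 0, the range being −2.93 to −0.16. Per-array medians were −0.60, −0.19 and −0.13 with auxin, against 0.73, 0.68 and 1.20 without. psbB (ArthCp049), of the photosystem II core, read −0.95, −0.21 and −0.65 on the auxin arrays and 2.32, 1.78 and 2.87 on the untreated arrays (−2.93 ± 0.36). Another core gene of that photosystem, psbD (ArthCp017), read −0.57, −0.39 and −0.72 with auxin and 2.09, 2.00 and 2.27 without (−2.68 ± 0.18). In psbB the untreated arrays spread over more than 1 log2 unit, and in psbD all 6 arrays kept close to their group. In bulk tissue fewer green cells and less RNA in each green cell cannot be told apart.

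Genes of transcription and RNA processing were higher by moderate amounts. All 12 measured subunits of the nuclear RNA polymerases were called higher, with a median of 1.17 and a range of 0.41 to 1.69. NRPA1 (AT3G57660), the largest subunit of polymerase I, which transcribes ribosomal RNA, read 0.67, 0.78 and 0.71 on the auxin arrays and −0.88, −0.70 and −0.67 on the untreated arrays (1.47 ± 0.09, adjusted p = 4.9e-09). NRPA2, its partner, differed by 1.33 ± 0.09, and the polymerase III subunits NRPC1 and NRPC2 by 1.25 ± 0.11 and 1.03 ± 0.08. NRPB9B of polymerase II was higher by 1.69 ± 0.14, and NRPD7 and NRPE7, of the plant-specific polymerases IV and V, by the least (0.41 ± 0.08 and 0.52 ± 0.13). YAO (AT4G05410), a nucleolar protein of ribosomal RNA processing, read 0.96, 1.09 and 0.98 with auxin, against −1.41, −1.11 and −0.96 without (2.17 ± 0.10, 4.51-fold). It gave the largest rise among 32 genes of RNA processing, of which 22 were called higher and 4 lower (median 0.67). LSM6A, of a protein ring that acts in RNA decay and splicing, was higher by 1.41 ± 0.10. The 2 genes for the small subunit of the splicing factor U2AF went the other way, ATU2AF35A (−0.81 ± 0.11) and U2AF35B (−0.79 ± 0.08). Both groups were assembled after the values had been seen.

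DNA replication genes and core histone genes rose, and linker histone genes fell. POLD3 and POLA3 (AT5G41880), subunits of replicative DNA polymerases, differed by 1.41 ± 0.09 and 1.35 ± 0.10, ICU2, the catalytic subunit of polymerase alpha, by 1.11 ± 0.13, and PRL, a subunit of the replicative helicase, by 1.23 ± 0.12. POLA3 read 0.63, 0.64 and 0.69 on the auxin arrays and −0.63, −0.73 and −0.72 on the untreated arrays. In the wider group of 22 replication and repair genes, made after the values had been seen, 13 were called higher and 3 lower (median 0.53). The lower ones were repair genes, RAD4 (−0.61 ± 0.08), RECQ4B (−0.28 ± 0.09) and RAD51B (−0.23 ± 0.09), and 1 was called lower without the 4 low-bioC arrays. HTB1 (AT1G07790), a histone H2B gene, read 0.66, 0.48 and 0.69 with auxin and −1.1, −0.48 and −0.83 without (1.42 ± 0.14), and HTB2, HTB4 and HTB11 were higher by 1.19 ± 0.12, 0.72 ± 0.10 and 0.95 ± 0.15. HTR12, the histone H3 of centromeres, was higher by 1.01 ± 0.15. HIS1-3 (AT2G18050), a linker histone gene known for its induction by drought, fell far below them: it read −2.35, −2.28 and −2.46 on the auxin arrays and 2.29, 2.30 and 2.28 on the untreated arrays (−4.65 ± 0.10, 25.1-fold lower, adjusted p = 3e-13). HON4, another linker histone gene, was lower (−0.36 ± 0.10).

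Most mitotic genes were higher. Of 9 measured, 8 were called higher and 0 lower (median 0.67), and the exception was KINESIN-12B (0.32 ± 0.16). BUB3.2 (AT1G49910), of the spindle checkpoint, read 0.81, 0.48 and 0.73 on the auxin arrays and −0.79, −0.50 and −0.48 on the untreated arrays (1.27 ± 0.15). AUR1 (AT4G32830), an Aurora kinase, read 0.44, 0.42 and 0.64 with auxin, against −0.64, −0.42 and −0.48 without (1.02 ± 0.10), and AUR2 and AUR3 differed by 0.34 ± 0.11 and 0.37 ± 0.13. UBC20, a ubiquitin-conjugating enzyme expressed in dividing cells, was higher by 1.11 ± 0.14. SIM, an inhibitor of cyclin-dependent kinases that promotes endoreduplication, was higher too, by 0.47 ± 0.11 (adjusted p = 0.0013).

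Xyloglucan endotransglucosylases and expansins, which modify the wall, had members called in both directions. XTH19 (AT4G30290), a xyloglucan endotransglucosylase, which cuts and rejoins wall polymers, read 4.5, 4.22 and 3.91 on the auxin arrays and 0.73, −0.37 and −0.78 on the untreated arrays (4.35 ± 0.29, 20.4-fold). XTH18 (AT4G30280), its neighbour on chromosome 4, read 2.26, 2.37 and 2.00 with auxin, against −1.85, −2.18 and −2.01 without (4.23 ± 0.17), and as close relatives the 2 may cross-hybridise in part. XTH20 and XTH33 were also called higher (3.81 ± 0.15 and 2.93 ± 0.19). XTH32 (AT2G36870) went down, at −0.12, −0.24 and −0.46 on the auxin arrays and 3.01, 3.68 and 3.03 on the untreated arrays (−3.51 ± 0.17), and XTH16 by less (−1.14 ± 0.21). The family of 10 had 4 genes called higher and 3 lower, so that its median was −0.03. Among 18 expansin genes, whose proteins loosen walls, 6 were called higher and 4 lower, shares close to those of all genes. EXPB2 (2.26 ± 0.15) and EXPA4 (2.22 ± 0.14) led the rises. EXPA8 (AT2G40610) fell most, at 1.86, 1.35 and 0.87 with auxin and 5.22, 4.89 and 4.69 without (−3.57 ± 0.21, 11.9-fold lower), and EXPA16 was lower (−0.70 ± 0.12).

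In the GH9 and TBL families more genes were called higher than lower, as among all genes (30.5% higher and 23.8% lower). Of 15 endoglucanase genes of family GH9, 6 were called higher and 0 lower. GH9B13 (AT4G02290) read 0.83, 0.90 and 1.05 on the auxin arrays and −2.23, −2.31 and −1.72 on the untreated arrays (3.02 ± 0.17, 8.10-fold), and GH9A3 was higher by 2.06 ± 0.15. TBL proteins, some of which acetylate wall polysaccharides, had 10 of 22 genes called higher and 5 lower (median 0.23). TBL41 (AT3G14850) read 2.47, 2.48 and 2.20 with auxin, against −1.09, −0.67 and −0.70 without (3.21 ± 0.17), TBL39 was higher by 2.51 ± 0.13, and TBL25 and TBL28 were lower (−1.91 ± 0.10 and −1.17 ± 0.20). Without the 4 low-bioC arrays 5 TBL genes were called higher. CSLA03, of a family of mannan synthases, was lower (−1.40 ± 0.16), and GAUT15, of a family of pectin synthases, higher by 0.90 ± 0.09. PRX52 (AT5G05340), a class III peroxidase, read 1.24, 1.25 and 1.48 on the auxin arrays and −2.04, −1.89 and −1.72 on the untreated arrays (3.20 ± 0.12), and PRXR1, another, was higher by only 0.41 ± 0.09. Of the lignin genes measured, CCR2, a cinnamoyl-CoA reductase, was higher by 1.00 ± 0.14, and HCT (−0.52 ± 0.09) and CCOAMT (−0.61 ± 0.17) were lower.

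Genes for proteins that organise microtubules and actin were called in both directions. TRM28 (AT5G03670), of the family that recruits the TON1 protein to microtubules, read 2.65, 2.83 and 2.62 with auxin and −0.73, −0.53 and −0.84 without (3.4 ± 0.11, 10.6-fold). TRM19 was higher by 2.19 ± 0.12, and TRM26 and TRM20 were lower (−1.94 ± 0.15 and −1.32 ± 0.09); the family had 3 of 14 genes called higher and 7 lower. Among IQD proteins, which bind calmodulin and microtubules, the gene iqd15 was higher by 1.77 ± 0.23 and IQD24 by 0.93 ± 0.12, against falls of iqd21 (−1.02 ± 0.13) and IQD28 (−0.95 ± 0.11). Of 15 measured IQD genes 5 were called higher (3 without the 4 low-bioC arrays) and 6 lower. LIM proteins bundle actin filaments, and 4 of 5 were called lower and 0 higher (median −1.55). PLIM2b (AT1G01780) read −1.18, −1.14 and −0.98 on the auxin arrays and 0.82, 0.88 and 1.23 on the untreated arrays (−2.08 ± 0.16), and WLIM1 was lower (−1.73 ± 0.08), with the exception being PLIM2a (−0.09 ± 0.11). The TBL, TRM, IQD, GH9 and LIM groups were made after the values had been seen.

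Signalling peptides were led by CLE44 (AT4G13195), the precursor of a peptide that keeps cambium cells dividing and out of xylem. It read 1.41, 1.54 and 1.76 on the auxin arrays, against −3.85, −3.81 and −3.85 on the untreated arrays, which lay within 0.05 of each other (5.40 ± 0.10, 42.3-fold, adjusted p = 1.3e-13). CLE41, which gives the same peptide, was lower by a little (−0.37 ± 0.11, adjusted p = 0.0091). RALFL27 (AT3G29780) read 1.99, 2.40 and 2.42 with auxin and −0.80, −0.52 and −0.53 without (2.89 ± 0.20), and RALFL34, a peptide gene of lateral root formation, was lower (−0.79 ± 0.14). The receptor kinases FER and THE1, which act at the wall, were both lower (−0.50 ± 0.11 and −0.62 ± 0.16). MOL1, a receptor-like kinase of the cambium, was higher by 0.39 ± 0.10. Of the 21 genes of this group 7 were called higher and 7 lower, or 3 lower without the 4 low-bioC arrays.

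Sugar transporters of the SWEET family held some of the largest falls outside photosynthesis. SWEET11 (AT3G48740), which exports sucrose towards the phloem, read −1.36, −1.88 and −1.55 on the auxin arrays and 4.19, 3.83 and 3.96 on the untreated arrays (−5.59 ± 0.19, 48.1-fold lower). SWEET2 (AT3G14770), a transporter of the vacuole, read −1.96, −1.87 and −2.11 with auxin, against 2.63, 2.75 and 1.81 without (−4.38 ± 0.23). SWEET9, known from nectaries, was higher by 2.46 ± 0.12, and SWEET14 by 1.23 ± 0.14. Over 19 sugar transporters 8 were called lower and 4 higher. APL3 (AT4G39210), a subunit of the enzyme that commits glucose to starch, read 2.83, 3.29 and 3.1 on the auxin arrays and −0.93, −0.91 and −0.50 on the untreated arrays (3.85 ± 0.21, 14.4-fold), while DPE1, which acts in starch breakdown, was lower (−2.41 ± 0.15). The 2 glucosinolate transporters rose alike. GTR1 (AT3G47960) read −0.13, −0.13 and −0.02 with auxin and −1.29, −1.41 and −1.33 without (1.25 ± 0.10), and GTR2 (AT5G62680) read 0.14, 0.04 and 0.17 with auxin and −1.07, −1.20 and −1.02 without (1.21 ± 0.08).

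Genes for the breakdown of leucine and other branched-chain amino acids, which plants use when carbon is short, were mostly or all lower, depending on the group. MCCA (AT1G03090), a subunit of methylcrotonyl-CoA carboxylase, read −2.46, −2.12 and −2.60 on the auxin arrays and 2.82, 2.35 and 2.19 on the untreated arrays (−4.85 ± 0.17, 28.8-fold lower). The partner subunit MCCB was lower (−2.37 ± 0.13). IVD (AT3G45300), the dehydrogenase one step earlier, read −1.47, −1.51 and −1.62 with auxin, against 2.01, 1.91 and 1.70 without (−3.41 ± 0.11). ETFQO, which passes the electrons on to the respiratory chain, was lower (−1.65 ± 0.08), and its partners ETFBETA and ETFALPHA were lower by less (−0.42 ± 0.11 and −0.32 ± 0.08). All 8 genes of the group, made after the values had been seen, were called lower (median −1.32). In the group written first, of starvation and branched-chain amino acid catabolism, 4 of 5 were called lower and 1 was not called (median −3.30). Allantoin breakdown fell in part: AAH (AT4G20070) read −1.31, −1.08 and −1.16 on the auxin arrays and 1.58, 1.46 and 1.48 on the untreated arrays (−2.69 ± 0.17), ALN was lower (−1.59 ± 0.13), and URE, the urease gene, was higher by 0.90 ± 0.11. Autophagy genes were lower in 7 of 10 and higher in 1 (median −0.46). ATG8E (AT2G45170), a ubiquitin-like protein of autophagosome membranes, read −2.32, −2.03 and −2.03 with auxin and 1.39, 1.28 and 1.05 without (−3.37 ± 0.11), ATG8F was lower (−1.61 ± 0.11), and ATG8G was the one higher (1.33 ± 0.13).

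Mitochondrial respiration moved the other way from plastid functions. NDB4 (AT2G20800), an external NADH dehydrogenase that bypasses complex I, read 2.1, 2.05 and 2.16 on the auxin arrays and −1.88, −1.86 and −1.99 on the untreated arrays (4.02 ± 0.14, 16.2-fold). NDB2 (AT4G05020), of the same kind, read 1.38, 1.53 and 1.24 with auxin, against −2.74, −2.78 and −2.07 without (3.91 ± 0.19). CYTC-2, a cytochrome c, was higher by 2.62 ± 0.14, SDH1-1, a subunit of complex II, by 1.82 ± 0.09, and the isocitrate dehydrogenase subunit IDH-VI by 1.52 ± 0.08. Of 17 nuclear genes of respiration, a group made after the values had been seen, 12 were called higher and 0 lower (median 0.80). Genes encoded in the mitochondrion were not like these: 6 of 11 were called lower and 1 higher. cox1, of complex IV, was lower (−0.89 ± 0.08), and cox2 was higher by 0.45 ± 0.10 on its probe set. For nad1, of complex I, 1 probe set was called at −0.43 and another at 0.75, and the probe set of nad5 (−0.99 ± 0.11) is one that the array design marks as shared by several sequences.

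Transcription factors outside the auxin pathway changed by up to a few log2 units. WRKY6 (AT1G62300), a factor of senescence and phosphate responses, read 0.30, 0.41 and 0.44 on the auxin arrays and −2.64, −2.93 and −2.36 on the untreated arrays (3.03 ± 0.13), and WRKY53 and WRKY47 were called higher as well (2.82 ± 0.17 and 1.86 ± 0.11). Among bZIP factors bZIP44 (AT1G75390) rose, at 1.65, 1.75 and 1.39 with auxin and −1.90, −1.94 and −1.82 without (3.48 ± 0.14, 11.2-fold). BZIP61 (AT3G58120) fell, at 2.04, 1.90 and 1.05 with auxin, against 4.59, 4.28 and 4.10 without (−2.66 ± 0.21). BZIP60, a factor of the unfolded protein response, was higher by 0.24 ± 0.08, and the group had 2 of 17 called higher (1 without the 4 low-bioC arrays) and 9 lower. Of 21 bHLH factors 12 were called lower and 3 higher (median −0.40). They included bHLH121, a regulator of iron uptake (−1.71 ± 0.09), and BHLH101 of the iron response (−0.68 ± 0.14), and BPEp, a factor of petal growth, led the rises (1.34 ± 0.12). The rise of bHLH34 was small (0.53 ± 0.13). TCP15, a factor of organ growth, was lower (−1.07 ± 0.18).

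Stomatal genes were lower at a peptide and at 2 of 3 measured factors. STOMAGEN (AT4G12970), a peptide that promotes stomata and is made in mesophyll, read −0.02, −0.22 and −0.14 on the auxin arrays and 2.27, 2.55 and 2.23 on the untreated arrays (−2.48 ± 0.11, 5.56-fold lower, adjusted p = 1.9e-10). SPCH, which starts the lineage, differed by −0.56 ± 0.11, and FMA, which ends it, by −0.40 ± 0.11. MUTE, which acts between them, was not called (−0.18 ± 0.14).

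Detoxification and redox families held genes called in both directions. GSTU25 (AT1G17180), a glutathione transferase, read 1.36, 1.78 and 1.87 with auxin and −2.89, −2.62 and −2.50 without (4.34 ± 0.14, 20.3-fold), while GSTU18 (AT1G10360) read −1.22, −1.24 and −1.16 with auxin and 2.85, 3.16 and 2.98 without (−4.21 ± 0.13). GSTU22 was higher by 1.74 ± 0.20 and GSTF4 lower (−1.49 ± 0.12), and of 13 measured 2 were called higher and 6 lower. ROXY2, a glutaredoxin known from anthers, was lower (−3.18 ± 0.12) and GRXC2, another glutaredoxin, higher by 1.01 ± 0.10. MSRB5 (AT4G04830), which repairs oxidised methionine, read −2.91, −2.87 and −3.05 on the auxin arrays and 0.44, 0.15 and 0.45 on the untreated arrays (−3.29 ± 0.14). Its chromosomal neighbour MSRB6 was lower (−1.26 ± 0.16), and MSRB9 was higher by 0.93 ± 0.29 (adjusted p = 0.014) and was not called without auxin array 1 or untreated array 3. Cytochromes P450 were called lower in 11 of 22 and higher in 1 (0 without the 4 low-bioC arrays), with CYP71B26 (−1.89 ± 0.22) and CYP71B5 (−1.83 ± 0.11) the lowest. UDP-glycosyltransferases had 13 of 47 called higher and 15 lower, with a median of 0.00, against 30.5% higher and 23.8% lower among all genes. UGT76B1, which acts on salicylate, was higher by 2.84 ± 0.22, and UGT71C1 by 2.83 ± 0.19, and UGT73B1 (−3.66 ± 0.13) and UGT88A1 (−3.0 ± 0.11) were lower. Without the 4 low-bioC arrays 7 of the 47 were called higher.

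Defence genes were led by PR-1-LIKE (AT2G19990), a relative of the pathogenesis-related protein PR-1, which gave the second largest rise of all probe sets. It read 2.73, 2.71 and 2.84 on the auxin arrays and −5.72, −5.38 and −5.54 on the untreated arrays (8.31 ± 0.15, 317-fold). It stands in a row with AT2G19980 and AT2G19970 on chromosome 2 in the RefSeq gene order, and both rose too, AT2G19970 by 8.33 ± 0.18 and AT2G19980 by 3.34 ± 0.11. Whether their probe sets cross-hybridise was not tested. PDF1.4, a defensin-like gene, was lower (−1.15 ± 0.10), and so was OSM34 (AT4G11650), an osmotin (−0.84 ± 0.23). OSM34 read −3.3, −2.78 and −2.93 on the auxin arrays, against −1.91, −2.70 and −1.87 on the untreated arrays, so that its groups were only just apart. Jacalin lectins were lower in 3 of 4, with JAL33 (AT3G16450) at −2.67, −2.75 and −2.48 with auxin and 0.04, 0.31 and 0.23 without (−2.83 ± 0.13) and JAL22 lower (−1.38 ± 0.14). Calmodulin-like genes, whose proteins sense calcium, were called higher in 2 of 7 and lower in 2. CML41 (2.09 ± 0.17) and CML43 (1.12 ± 0.13) were higher, and CML30 had the largest fall (−2.27 ± 0.15). Tetraspanin genes of the plasma membrane were lower in 5 of 15 (3 without the 4 low-bioC arrays), most in TET8 (−0.98 ± 0.12) and TET3 (−0.71 ± 0.11), and higher in TET15 (0.56 ± 0.11).

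Genes of protein turnover were also called in both directions. The serine carboxypeptidase-like genes had 8 of 29 called higher and 5 lower, with 16 not called. Among all genes 30.5% were called higher and 23.8% lower. The gene scpl28 (AT2G35770) read 2.49, 2.56 and 2.82 on the auxin arrays and −2.41, −2.23 and −1.96 on the untreated arrays (4.83 ± 0.20, 28.4-fold), and scpl20 was higher by 3.4 ± 0.13. The largest falls in that family were those of scpl42 (−1.09 ± 0.11) and SCPL34 (−0.83 ± 0.11), of which SCPL34 shrank to −0.24 after quantile normalization and was then not called. Subtilases, which cut secreted proteins, split 3 higher to 4 lower among 10. ATSBT5.2 (AT1G20160) read −1.81, −2.09 and −1.86 with auxin, against 1.70, 1.70 and 1.97 without (−3.71 ± 0.17), and SBT4.12 was lower (−3.06 ± 0.13), while ARA12 (1.62 ± 0.10) and SBTI1.1 (0.93 ± 0.13) were higher. Of the vacuolar processing enzymes, proteases that mature vacuolar proteins, GAMMA-VPE (AT4G32940) of vegetative tissue was lower and BETA-VPE (AT1G62710), known from seeds, was higher. GAMMA-VPE read −1.56, −1.20 and −1.34 on the auxin arrays and 0.83, 0.45 and 0.67 on the untreated arrays (−2.02 ± 0.11). BETA-VPE read 0.38, 0.42 and 0.20 with auxin and −1.68, −2.01 and −1.01 without (1.90 ± 0.22), and ALPHA-VPE was higher by 0.67 ± 0.11. PUB23 (AT2G35930), a ubiquitin ligase that limits immunity and drought responses, read 0.33, 0.78 and 0.39 with auxin, against −2.62, −2.79 and −2.19 without (3.03 ± 0.19). Its close relatives PUB22 and PUB24 differed by 1.06 ± 0.19 and −0.35 ± 0.11, and PUB24 was not called without auxin array 3 or untreated array 2. Among ubiquitin-conjugating enzymes UBC18 was higher by 0.84 ± 0.10, and UBC28 (−1.71 ± 0.09) and UBC16 (−0.96 ± 0.08) were lower. The proteasome subunit RPN12a was higher by 0.91 ± 0.09.

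Chaperones were more often higher than lower. Of 20 chaperones and co-chaperones 12 were called higher and 5 lower (median 0.74). Within the plastid chaperonin family Cpn60beta3 was higher by 1.71 ± 0.09 and Cpn60beta4 lower (−1.74 ± 0.20), and Hsp70-2 of the cytosol was higher by 1.49 ± 0.18. Fes1A and Fes1B (AT3G53800), exchange factors for Hsp70, moved apart. Fes1B read −0.22, −0.46 and −0.50 on the auxin arrays and 2.40, 2.1 and 2.58 on the untreated arrays (−2.75 ± 0.21), and Fes1A was higher by 1.24 ± 0.17. PDIL5-1, a protein disulphide isomerase, was higher by 0.66 ± 0.08, and so was the translation initiation factor EIF4A-2 (0.74 ± 0.09). Beta-glucosidases fell more often than they rose, in 7 against 3 of 21. BGLU44 (AT3G18080) read −1.44, −1.99 and −1.42 with auxin and 2.52, 2.28 and 2.64 without (−4.10 ± 0.21), and BGLU45, which releases lignin precursors, was lower (−2.52 ± 0.20). BGLU25 and BGLU42 were higher, by 1.07 ± 0.10 and 1.07 ± 0.09. The 2 measured ATP sulphurylase genes of sulphate assimilation split, with APS3 higher by 0.62 ± 0.16 and APS4 lower (−0.72 ± 0.09). The bZIP, bHLH, stomatal, methionine repair, jacalin, calmodulin-like, tetraspanin, carboxypeptidase, subtilase, processing enzyme, PUB, ubiquitin-conjugating, chaperone and beta-glucosidase groups were made after the values had been seen.

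Many of the largest changes belong to genes that the annotation names by locus only, and the role of their products is not given in the sources used here. Among all 13356 genes 11809 are listed under a locus only, a larger share than among the largest rises or falls. Of the 15 largest rises among probe sets with 1 gene, 11 are listed under a locus, 1 of them with a synonym. AT2G19970 rose most of all probe sets and read 2.03, 2.04 and 2.29 on the auxin arrays, against −6.64, −6.21 and −5.77 on the untreated arrays (321-fold). AT1G64405 read 2.66, 2.79 and 2.96 with auxin and −4.03, −4.11 and −4.15 without (6.90 ± 0.17), and AT2G18980 read 2.47, 2.46 and 2.66 with auxin and −4.47, −4.57 and −4.05 without (6.90 ± 0.21). In all 3 loci the groups were at least 6 apart. The next among probe sets with 1 gene were AT5G52390 (6.32 ± 0.17), AT3G25290 (6.07 ± 0.16), AT3G13672, also called SINA2 (6.07 ± 0.13), AT1G67750 (5.89 ± 0.16), AT2G04050 (5.87 ± 0.24) and AT2G41800 (5.87 ± 0.19). AT3G13650 (5.47 ± 0.14) and AT1G68850 (5.46 ± 0.18) followed. Among the 15 largest falls of probe sets with 1 gene 6 are listed under a locus. Other probe sets, with no gene or with several, also lie among the largest changes and are not named. AT2G15960 read −3.28, −3.22 and −3.82 on the auxin arrays and 3.55, 3.59 and 3.18 on the untreated arrays (−6.88 ± 0.18). AT5G02160 (−6.79 ± 0.16), AT3G62550 (−6.61 ± 0.23), AT3G15450 (−6.60 ± 0.14), AT5G24490 (−6.44 ± 0.17) and AT2G20670 (−6.39 ± 0.17) were lower by similar amounts. CCL, named for its likeness to the clock-regulated gene CCR, was lower (−6.57 ± 0.18), and so was ALDH11A3, an aldehyde dehydrogenase (−6.46 ± 0.25).

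Marker genes were used to ask which cell types the tissue held, as far as the array annotation names them. The 4 measured markers of photosynthetic mesophyll (of 16 listed) were all lower, and their medians were −2.66, −2.68 and −2.97 on the auxin arrays, against 4.54, 4.74 and 4.54 on the untreated arrays. The 3 measured markers of pericycle and lateral root primordium, LBD16, LBD29 and PUCHI, were all higher, with medians of 2.25, 2.16 and 2.60 with auxin and −2.53, −2.50 and −2.61 without. These markers are the genes described above and no separate evidence. Of 10 stomatal markers 3 were measured and 2 were lower, and of 9 cambium markers 3 were measured, CLE44 and MOL1 higher and CLE41 lower. The root hair markers EXPA7 (−0.09 ± 0.12) and EXPA18 (0.24 ± 0.14), the xylem marker GUT2 (−0.21 ± 0.11) and CLV3 of the shoot meristem (−0.18 ± 0.12) were not called. PAP85, a seed storage protein gene, read 0.00, −0.07 and 0.06 on the auxin arrays and 1.33, 2.21 and 1.85 on the untreated arrays (−1.80 ± 0.18, adjusted p = 5.8e-07). The single epidermal symbol found, FDH, belongs in RefSeq to a formate dehydrogenase and marks no epidermis. No marker of endodermis, phloem or flower was measured under its own name, and centred values give no level, so that the presence of a cell type could not be judged.

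**Figure D3:**
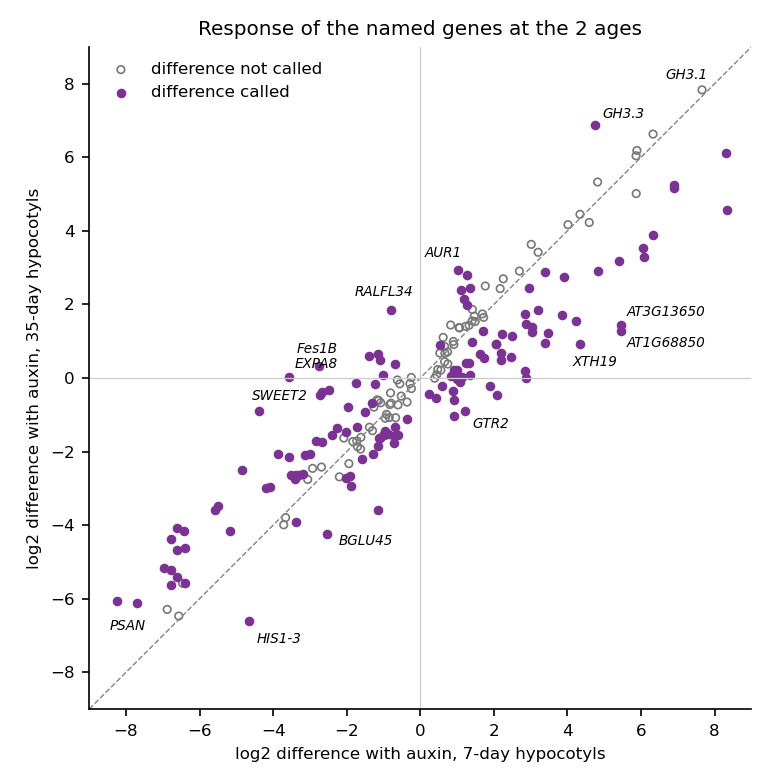
Log2 difference with auxin at 7 days (x axis) and at 35 days (y axis) for the 210 named genes; filled points have a called difference between the ages and open points do not, and the dashed line marks equal responses. Of the 210 genes 134 have a called difference; EXPA8 and SWEET2 lie far above the line, and XTH19, AT3G13650 and AT1G68850 far below it.

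Whether the response at 7 days differed from that at 35 days was tested directly, as the 35-day response minus the 7-day response, each against untreated arrays of its own age. This difference was called in 7962 of 22746 probe sets (35.0%), or in 4336 without the 4 low-bioC arrays. Of the 13440 probe sets called at 7 days, 10059 were called in the same direction at 35 days and 734 in the opposite one. The other 2647 were not called at 35 days, and in 1666 of these the difference between ages was itself called. Naming selects large 7-day changes, which favours smaller ones at 35 days.

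The auxin pathway itself responded at both ages. GH3.1 differed by 7.66 ± 0.10 at 7 days and 7.83 ± 0.10 at 35 days, and LBD29 by 6.33 ± 0.12 and 6.63 ± 0.12; neither difference between ages was called (adjusted p = 0.41 and 0.19). GH3.3 rose less at 7 days, by 4.76 ± 0.25, against 6.88 ± 0.25 at 35 days (difference 2.11 ± 0.36, adjusted p = 0.00042), and so did HAT2, by 1.28 ± 0.12 at 7 days and 2.81 ± 0.12 at 35 days. Falls of the leading photosynthesis genes were deeper at 7 days. PSAN differed by −8.24 ± 0.23 at 7 days and −6.06 ± 0.23 at 35 days (difference 2.18 ± 0.32, adjusted p = 0.00013), and the called differences of LHCB4.2, PRK, RCA, HPR, PSB27 and PSAE-1 ran the same way, although that of HPR was not called after quantile normalization.

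Some responses of 7-day hypocotyls were small, not called or of the other sign at 35 days. EXPA8 differed by −3.57 ± 0.21 at 7 days and 0.02 ± 0.21 at 35 days (difference 3.59 ± 0.29, adjusted p = 9.1e-07). SWEET2 differed by −4.38 ± 0.23 at 7 days and −0.89 ± 0.23 at 35 days, and RR16 by −2.73 ± 0.22 at 7 days and −0.46 ± 0.22 at 35 days, where it was not called. RALFL27 was called at 7 days (2.89 ± 0.20) and not at 35 days (0.00 ± 0.20), and the difference was called (−2.89 ± 0.28, adjusted p = 4e-06). XTH19 and XTH18 rose less at 35 days, by 0.93 ± 0.29 and 1.55 ± 0.17. GTR2 was higher at 7 days (1.21 ± 0.08) and lower at 35 days (−0.90 ± 0.08), whereas RALFL34 was lower at 7 days (−0.79 ± 0.14) and higher at 35 days (1.84 ± 0.14). CSLA03, XTH16 and scpl42 were likewise lower at 7 days and higher at 35 days, by 0.60 ± 0.16, 0.66 ± 0.21 and 0.49 ± 0.11. Some genes of division and replication rose less at 7 days. AUR1 differed by 1.02 ± 0.10 at 7 days and 2.93 ± 0.10 at 35 days, UBC20 by 1.11 ± 0.14 and 2.40 ± 0.14, and POLA3 by 1.35 ± 0.10 and 2.45 ± 0.10, each with a called difference (adjusted p = 3.9e-07, 0.0002 and 3e-05). HIS1-3, PDF1.4 and BGLU45 fell less at 7 days than at 35 days, where they differed by −6.62 ± 0.10, −3.60 ± 0.10 and −4.25 ± 0.20.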

How the data were processed

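RNA from 12 Affymetrix ATH1 arrays was read as the log2 values the authors deposited, made with RMA per the submitters' processing notes; no version or background setting is given in the sources used here. Each probe set has a median of 0 over the 12 arrays to 5 decimals in the deposited table, so the values are differences from that median, and the log base was taken as 2 because RMA returns it. Values run from −6.64 to 6.77.

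After 64 control probe sets were left out, limma 3.58.1 (lmFit and eBayes, R 4.3.3) fitted 4 groups over 12 arrays with no block, which left 8 residual degrees of freedom. Contrasts were auxin minus no auxin at 7 days and the 35-day response minus the 7-day response, and a probe set was called at a Benjamini-Hochberg adjusted p under 0.05 over 22746. The script was checked on simulated data. Gene groups were matched on gene symbols and used the mean of a gene's probe sets, with 13356 genes. Tables and figures were made with Python 3.11.15, pandas 2.3.3, numpy 2.4.6 and matplotlib 3.10.9.

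Genes were named from the array annotation, updated through RefSeq by gene ID, for 13436 of 13513 probe sets with 1 gene. The rule took the 15 largest rises and falls, the 2 largest of each direction in every gene group, and GH3.1, GH3.3, LBD16, LBD29, PUCHI, IAA29, IAA30, PRK and HIS1-3, among called probe sets whose groups did not overlap. Where a gene has several probe sets the largest change was taken. The groups of arrays, the gene groups and the rule were chosen with earlier results of these data known, and 27 of 82 gene groups were written after the values were seen; 4 of the groups had no measured gene, and 14 symbols that stand for another gene were taken out. Other genes of a group were chosen after their values were seen.

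Alternatives were the 6 arrays alone, a replicate block, equal array medians, quantile normalization, a robust variance, 1 value a gene, a filter on SD, arrays with low bioC left out, and each array left out. Groups of 3 arrays are too small for a test of outlying arrays. No sequence or coordinate is printed, since no genome build is named in the sources used here.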

Additional observations from a re-analysis of the deposited data

Results flagged for a closer look

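For 134 of the 210 named genes the change with auxin differed between the 2 ages. Each was tested as the 35-day response minus the 7-day response in the limma fit, with Benjamini-Hochberg adjustment over all probe sets. The difference was called in 35.0% of all probe sets, and in 6401 of the 13440 called at 7 days, as every named gene was. A value below 0 means a smaller rise, or a deeper fall, at 35 days. Naming chose genes with large 7-day changes. Of the 63 genes that rose at 7 days 55 had a value below 0, and of the 71 that fell 50 had a value above 0. The opposite direction was called at 35 days in 12 of the 134, and in 18 no change was called there. The difference between ages of HYH was not called without most single arrays or with array medians set equal. That of BHLH101 was not called without some single arrays, and that of CYP71B26 without 35-day auxin array 1. Those of AT1G64405, AT2G18980 and HPR were not called after quantile normalization. In 39 of the 134, NDB2, scpl20, IAA30, UGT76B1, GSTU22, Cpn60beta3, LSM6A, BUB3.2, SBTI1.1, UBC18, LEA4-5, OTP81, BZIP60, PUB24, CCOAMT, cox1, UBC16, TET8, nad5, GID1C, MYC3, FHL, PID2, ALN, bHLH121, UGT74D1, GAMMA-VPE, DPE1, psbD, ROXY2, MSRB5, COR47, ATG8E, IVD, XTH32, BGLU44, PORB, AT2G20670 and AT3G62550, the difference between ages was not called without arrays 1 and 2 of both untreated groups, whose bioC was low.

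Among rises that were smaller at 35 days, the leading locus-named and auxin-linked genes were AT1G68850 (−4.17), AT3G13650 (−4.02), AT2G19970 (−3.77), AT3G25290 (−2.80), AT3G13672 (−2.53), AT5G52390 (−2.45), AT2G18980 (−1.74), AT1G64405 (−1.64) and IAA30 (−0.50). Wall and cytoskeleton genes followed with XTH19 (−3.42), XTH18 (−2.67), TRM28 (−2.46), TRM19 (−1.52), IQD24 (−1.54), TBL39 (−1.37), TBL41 (−1.36), GH9A3 (−1.13), CCR2 (−1.02), EXPA4 (−1.01) and PRXR1 (−0.97). Genes of hormones, peptides and signalling were RALFL27 (−2.89), CML41 (−2.54), CLE44 (−2.23), GID1B (−1.71), BRL1 (−1.42), OPCL1 (−1.13), CML43 (−1.09) and LEA4-5 (−0.83). Transcription factors were bZIP44 (−2.24), WRKY6 (−1.79), BPEp (−1.25) and BZIP60 (−0.66).

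Transport and metabolism contributed UGT71C1 (−2.63), APL3 (−2.14), GTR2 (−2.12), SWEET9 (−1.89), URE (−1.25), BGLU25 (−1.18), NDB2 (−1.18), UGT76B1 (−1.09) and GTR1 (−0.84). Defence, redox and proteolysis genes were PR-1-LIKE (−2.20), BETA-VPE (−2.13), MSRB9 (−1.95), scpl28 (−1.92), PUB23 (−1.64), GSTU22 (−1.20), ARA12 (−0.98), ATG8G (−0.93), GRXC2 (−0.80), UBC18 (−0.78), SBTI1.1 (−0.72), scpl20 (−0.51), Cpn60beta3 (−0.43) and LSM6A (−0.43). CML41, GTR2, MSRB9, IQD24, URE, PRXR1 and BZIP60 were called lower with auxin at 35 days.

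A larger rise at 35 days was seen in GH3.3 (2.11), AUR1 (1.92), HAT2 (1.54), UBC20 (1.29), POLA3 (1.1), HTB2 (0.96), BUB3.2 (0.71) and OTP81 (0.35).

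Falls were shallower at 35 days in genes of photosynthesis and plastids: PSAN (2.18), CHLM (2.02), PSB27 (1.93), PRK (1.81), TAPX (1.81), PSAE-1 (1.78), Cpn60beta4 (1.61), LHCB4.2 (1.60), RCA (1.54), ATAB2 (1.43), HPR (1.16), FUG1 (1.06), PORB (1.01) and psbD (0.94). The locus-named genes with such a value were AT3G15450 (2.52), AT5G02160 (2.42), AT5G24490 (2.29), AT3G62550 (1.21) and AT2G20670 (0.83). Transport and metabolism gave SWEET2 (3.49), MCCA (2.34), SWEET11 (1.99), GSTU18 (1.22), BGLU44 (1.15), UGT88A1 (0.94), DPE1 (0.85), ATG8E (0.73), IVD (0.68), MSRB5 (0.66), ROXY2 (0.57), GSTF4 (0.57) and UGT74D1 (0.55).

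The remaining shallower falls were those of EXPA8 (3.59), Fes1B (3.08), RALFL34 (2.63), BZIP61 (2.28), RR16 (2.27), STOMAGEN (2.15), CSLA03 (1.99), XTH16 (1.8), scpl42 (1.57), HYH (1.17), JAL33 (1.12), iqd21 (1.1), EXPA16 (1.09), PID2 (1.07), CML30 (0.90), XTH32 (0.87), TRM20 (0.65) and bHLH121 (0.38). Of these, EXPA16, RALFL34, scpl42, XTH16 and CSLA03 were called higher with auxin at 35 days.

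Deeper falls at 35 days were found in PDF1.4 (−2.45), HIS1-3 (−1.97), BGLU45 (−1.72), APS4 (−1.06), CYP71B26 (−1.05), CCOAMT (−0.95), TET3 (−0.86), MYC4 (−0.78), TBL25 (−0.75), PUB24 (−0.75), FHL (−0.69), GAMMA-VPE (−0.69), BHLH101 (−0.66), cox1 (−0.63), ALN (−0.60), COR47 (−0.56), nad5 (−0.56), TET8 (−0.53), GID1C (−0.53), MYC3 (−0.52) and UBC16 (−0.47).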

How the results depend on the processing

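Where probe sets were tested, the alternatives that keep every array or drop the 4 low-bioC ones called 10138 to 13610, against 13440, and 5536 to 5664 with a fold of at least 2, against 5663. The lowest count came from testing only probe sets with an SD above the median. With 1 value a gene, which tests fewer features by construction, 7254 genes were called, 2994 of them with a fold of at least 2, and the difference between ages was called in 4044. Without arrays 1 and 2 of both untreated groups, whose bioC was low, the difference between ages was called in 4336 probe sets against 7962; this leaves fewer arrays. Leaving out 1 array at a time gave 12669 to 13561 called probe sets, 5557 to 5779 with a fold of at least 2, and 6982 to 7856 with a difference between ages. With array medians set equal 7186 probe sets were called higher, and after quantile normalization 6976, against 7441. The robust variance estimate changed none of these counts.

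Of 3990 values of the 7-day difference of the 210 named genes over 19 alternatives, none changed sign and 28 were no longer called. These losses fell on MSRB9, APS3, SIM, cox2, PRXR1, BZIP60, GH3.9, YUC4, RECQ4B, PUB24, CCOAMT and SCPL34. For the 134 genes with a called difference between ages, 17 alternatives gave 2278 values of it, of which 1 changed sign and 149, over 45 genes, were no longer called. After quantile normalization 21 values lost the call or changed sign, and among them that of AT2G20670 was −0.15, of the opposite sign. Without arrays 1 and 2 of both untreated groups 39 were not called, with array medians set equal 2, with the replicate block 3, and without single arrays 3 to 11. Of 156 group counts, 21 moved by over 1.5 times without arrays 1 and 2 of both untreated groups and 2 with array medians set equal. Whether replicate numbers pair the arrays could not be settled. Deviations of same-numbered arrays at 7 days correlated at 0.20, −0.05 and 0.13, and those of differently numbered arrays at −0.21 to 0.10. With the replicate number as a block 13610 probe sets were called over 12 arrays and 13449 over the 6 arrays of 7-day hypocotyls, and 8213 had a called difference between ages.

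The number of arrays, 3 a group, limits the precision, and an exact permutation of 3 against 3 arrays cannot go below p = 0.10. Values centred by probe set allowed no filter on dim probe sets, so signal over background was not assessed.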
